A study of Mus musculus with 6 samples.

Results

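The genes described here encode 10 antigens by which B cells and other lymphocytes are recognised, namely Ms4a1, Ly6d, Fcrla, Cd37, Cd53, Cd2, Cd48, Cd52, Cd24a and Cd38. They were chosen by gene symbol, and each was read on its brightest probe (highest mean log2 intensity). Of the 10 genes, 9 had a probe that the platform annotation assigns to a single symbol, and all 9 passed the filter on dim probes that left 11855 of 19057 annotated genes. Cd38 had no such probe and was not analysed here.

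The RNA was from splenic B cells, purified from C57BL/6 mice (an inbred strain) aged 8 weeks. In the anti-IgM group (3 samples) the B cell antigen receptor (BCR) was cross-linked with goat F(ab')2 fragments against mouse IgM at 2.5 µg/ml for 3 h, and the untreated group (3 samples) is labelled as the control. The protocols add IL-4 (interleukin 4, 5 ng/ml) and CD40L (a costimulatory ligand, 200 ng/ml) and do not name the samples that received them. If the untreated cells went without these agents, their effects and those of anti-IgM cannot be told apart. The labels do not say whether samples came from separate mice or cultures, so a p-value here covers only the spread among these samples, which may be technical. An Illumina bead array was hybridised for each sample. The comparison asks how transcripts of these antigens stood after BCR stimulation.

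CD20, the product of Ms4a1, spans the membrane of B cells beside the BCR. CD37 and CD53 are tetraspanins, proteins that gather partner molecules into membrane patches. CD2 is an adhesion receptor of T, natural killer and, in mice, B cells, and its ligand in mice is CD48. CD48, CD52, CD24 and LY6D are held in the membrane by a glycosylphosphatidylinositol (GPI) anchor, and LY6D marks lymphoid progenitors that have turned to the B lineage. The product of Fcrla belongs to the Fc receptor-like family, but the human protein was found inside B cells, in the endoplasmic reticulum, rather than on their surface. Human CD20 and CD52 are targets of therapeutic antibodies.

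Promoter sequences are shown for Fcrla and Cd37, whose transcripts fell, and for Cd53, the tetraspanin gene whose brightest probe was not called, so that the sequence before each start can be read beside its values. They are the 250 bases before the annotated start in RefSeq (GRCm38.p6), 5′ to 3′ on the strand of the gene, and capitals mark matches to the motifs searched.
Fcrla, chr1:170927584-170927833, minus strand: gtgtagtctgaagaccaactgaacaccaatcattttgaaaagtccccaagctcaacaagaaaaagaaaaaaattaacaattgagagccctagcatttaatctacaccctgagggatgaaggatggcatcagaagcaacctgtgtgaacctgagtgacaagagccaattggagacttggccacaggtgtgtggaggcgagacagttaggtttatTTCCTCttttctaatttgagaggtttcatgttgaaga
Cd37, chr7:45238840-45239089, minus strand: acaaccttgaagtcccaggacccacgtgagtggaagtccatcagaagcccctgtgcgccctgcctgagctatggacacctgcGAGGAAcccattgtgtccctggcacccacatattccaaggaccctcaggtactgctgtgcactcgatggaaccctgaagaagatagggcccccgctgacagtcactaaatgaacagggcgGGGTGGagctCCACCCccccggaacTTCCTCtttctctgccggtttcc
Cd53, chr3:106790150-106790399, minus strand: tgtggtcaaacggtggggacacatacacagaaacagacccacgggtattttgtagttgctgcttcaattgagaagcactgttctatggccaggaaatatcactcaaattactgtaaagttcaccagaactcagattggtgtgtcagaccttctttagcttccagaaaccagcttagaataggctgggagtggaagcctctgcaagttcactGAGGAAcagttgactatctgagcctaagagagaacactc
All 6 motifs were searched on both strands, those of EBF and NF-kB by name. The core GAGGAA, recognised by PU.1 and other ETS factors, was in 3 of the 5 windows found for these antigens, which are the 3 shown. The windows of Cd38 and Cd48 lacked the core. It was read on the other strand as TTCCTC in Fcrla and at the nearer place in Cd37. It lay 37 to 32 bases before the start in Fcrla, 39 to 34 bases in Cd53, and both 168 to 163 and 23 to 18 bases in Cd37. Over all 32851 windows in the table, 23.3% held it. The Kruppel-like factor motif CCACCC was in 2 of the 5 windows, those of Cd37 (on either strand) and Cd38, which is not shown. It was on some strand in 28.1% of all windows. Of the 10 genes 5 had a window in the table. Cd48 held none of the 6 motifs, and none of the 5 windows held the octamer ATTTGCAT of POU2 factors, which was in 1.6% of all windows. The motifs of EBF and NF-kB and the TATA box were in none of the 5 either, and in 0.779%, 1.41% and 12.4% of all windows. A match describes letters in a window, not a bound site.

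Transcripts of most of the antigens that could be compared were lower with anti-IgM. Levels could be compared for the 7 genes that were above the median of the array in both groups. Of these, 5 fell (Fcrla, Cd2, Ly6d, Cd37 and Ms4a1), 1 rose slightly (Cd52), and Cd53 was not called on its brightest probe. The falls ran from 2.90-fold for Ms4a1 to 11.5-fold for Fcrla. Among all genes tested, 47.1% were called at an adjusted p under 0.05 in limma, 23.9% lower and 23.2% higher. Of the 11595 genes that, like the 7, had a sample above the array median in both groups, 46.5% were called, 23.5% lower and 23% higher. At least 2-fold lower were 5 of the 7 genes, against 10.5% of those 11595, and at least 4-fold lower were 3 of the 7 (Fcrla, Cd2 and Ly6d), against 2.29%. The members were chosen with earlier results of these data known, so these shares describe and do not test. The 7 were above the array median in every sample, while the 11595 needed only a sample in each group. The values of both groups did not overlap in any of the 7, as in 53.7% of the 11595 genes and 54.8% of all genes tested. Cd48 and Cd24a were above the array median in untreated samples only and are left out of these counts. They passed the filter on dim probes through the untreated samples alone, which favours a lower value with anti-IgM, so their p-values are given as fitted and support nothing. In purified cells read in bulk, fewer cells that hold a transcript and less of it per cell cannot be told apart. The deposited arrays share nearly the same distribution, so every change is relative to the other genes on the array.

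**Figure D1:**
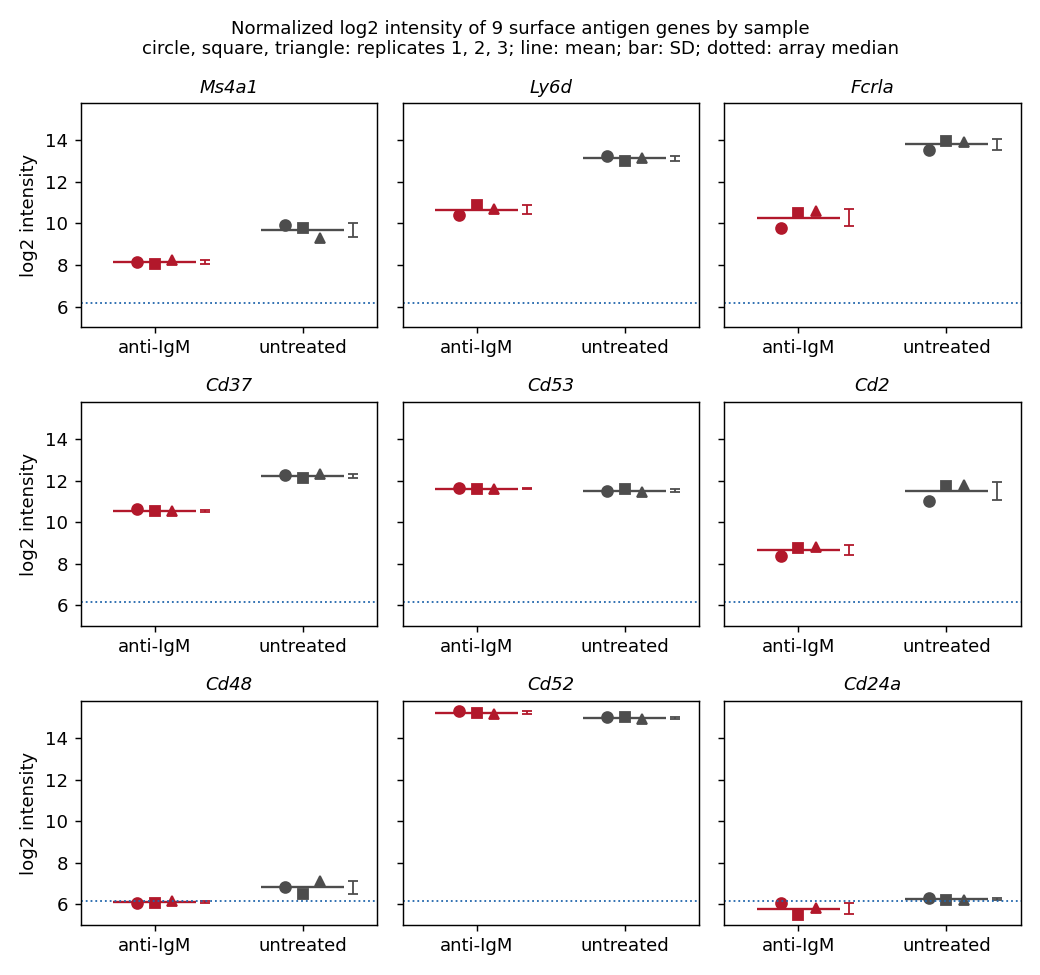
Normalized log2 intensity (vertical axis) of the brightest probe of 9 surface antigen genes in anti-IgM samples (left, red) and untreated samples (right, grey), 3 samples each, with the mean as a line, the SD as a bar and the array median as a dotted line. Fcrla, Cd2, Ly6d, Cd37 and Ms4a1 lie clearly lower with anti-IgM, Cd53 and Cd52 lie at nearly the same height in both groups, and Cd48 and Cd24a lie close to the array median.

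Fcrla, a gene of the B lineage, had intensities of 885, 1424 and 1531 in anti-IgM samples, against 11679, 15816 and 15683 in untreated samples. Every anti-IgM sample was far below every untreated sample. The log2 change was −3.52 ± 0.20 (SE; n = 3 each), an 11.5-fold fall (adjusted p = 2.35e-07, limma), and 18 of the 11855 genes tested had a lower change. The other 3 probes of Fcrla gave −3.25, −3.25 and −3.42, and each was called over all probes tested, of which 42.2% were called. On the brightest probe, replicate 1 had the lowest Fcrla intensity in both groups.

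Ly6d, which marks progenitors committed to the B lineage, had 1360, 1870 and 1679 in anti-IgM samples and 9601, 8242 and 9061 in untreated samples. The groups were far apart and the spread within each was small, with a log2 SD of 0.23 in anti-IgM and 0.11 in untreated samples (n = 3 each). The log2 change was −2.46 ± 0.12, a 5.52-fold fall (adjusted p = 1.25e-07, limma), and the other Ly6d probe gave −2.35. Ms4a1, the CD20 gene, had 284, 267 and 298 in anti-IgM samples, against 978, 891 and 632 in untreated samples. The anti-IgM samples varied less (log2 SD 0.081) than the untreated samples (0.33), and replicate 3 was the lowest untreated sample. The log2 change of Ms4a1 was −1.54 ± 0.17 (95% interval −1.91 to −1.16), a 2.90-fold fall (adjusted p = 2.51e-05, limma).

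Of the tetraspanin genes, Cd37 fell and Cd53 was not called on its brightest probe. Cd37, prominent on mature B cells, had 1577, 1470 and 1484 in anti-IgM samples, against 4958, 4417 and 5075 in untreated samples. Replicates lay close together and the groups far apart, giving a log2 change of −1.67 ± 0.09 and a 3.18-fold fall (adjusted p = 2.37e-07, limma). Cd53, found on leukocytes in general, had 3219, 3116 and 3106 in anti-IgM samples, against 2949, 3085 and 2776 in untreated samples on its brightest probe. These groups did not overlap, but the nearest samples of each differed by little, and the log2 change of 0.10 ± 0.09 was not called (95% interval −0.09 to 0.29; adjusted p = 0.39, limma). The interval leaves out any fall like that of Cd37.

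The change of Cd37 minus that of Cd53 was −1.77 ± 0.10 (SE; n = 3 each; exact two-sided permutation p = 0.1, the smallest that 3 against 3 samples allow). A dimmer probe of Cd53 gave a different answer from the brightest one, with 219, 231 and 200 in anti-IgM samples against 143, 148 and 101 in untreated samples. All anti-IgM samples were above all untreated ones on that probe, a log2 change of 0.75 ± 0.18 that was called over all probes tested (adjusted p = 0.0081, limma). It exceeded the change of the brightest probe by 0.64 ± 0.15 (exact two-sided permutation p = 0.1, the smallest possible; 2 such differences were tested, adjusted p = 0.1 for both). Both Cd53 probes carry the same transcript accession in the annotation. The estimate for Cd53 was above 0 on either probe, and whether it was called depended on the probe, since the mean of both probes gave 0.42 (adjusted p = 0.012, limma).

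**Figure D2:**
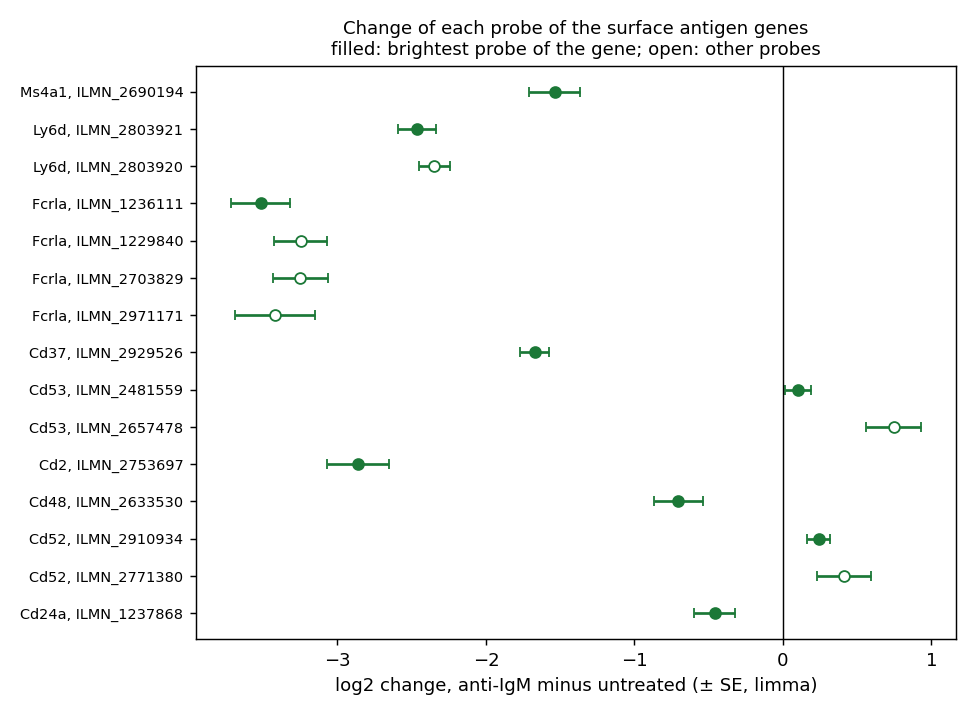
Log2 change (horizontal axis, anti-IgM minus untreated, ± SE from limma over all probes tested) of each of the 15 probes of the surface antigen genes, with the brightest probe of a gene filled and the others open. The 4 Fcrla probes lie between −3.52 and −3.25, the Ly6d probes together near −2.4, and the Cd53 probes apart at 0.10 and 0.75.

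The receptor gene Cd2 was lower with anti-IgM. Cd48, the gene of its ligand, was above the array median in untreated samples only. Cd2 had 337, 428 and 455 in anti-IgM samples and 2064, 3483 and 3498 in untreated samples. The highest anti-IgM sample stayed well below the lowest untreated one, and replicate 1 was the lowest sample of each group. The log2 change was −2.86 ± 0.20, a 7.27-fold fall (adjusted p = 1.12e-06, limma), and 71 of 11855 genes had a lower change. T cells carry CD2 as well. Of 10 T cell markers 7 were tested, 1 of them lower and none higher. Their summed intensity was 1584 to 1858 in anti-IgM samples and 2162 to 2481 in untreated samples. Most of that sum was Cd8b1, a coreceptor chain gene, which fell with a log2 change of −0.58. The other 6 markers were not called. The T cell receptor complex gene Cd3d had a mean log2 intensity of 6.99 in anti-IgM samples and 6.78 in untreated samples, above the array median of 6.19 on all 6 arrays. The related genes Cd3e and Cd3g had 6.04 and 6.15 in anti-IgM samples and 6.33 and 6.40 in untreated samples, close to that median. Cd4, Trat1 and Thy1 lay near it too, with changes of −0.08, −0.07 and 0.13. The part of T cells in the change of Cd2 was not tested.

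Cd48 had 68.1, 67.2 and 72.0 in anti-IgM samples, against 113, 90.1 and 140 in untreated samples. No anti-IgM sample was above its array's median of 72.8, so the difference is a bound. With anti-IgM values raised to that median, their mean was 1.54-fold lower (fitted log2 change −0.70 ± 0.17; adjusted p = 0.0050, limma). Cd48 passed the filter on dim probes through untreated samples alone, so this p-value supports no fall.

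Cd52, which encodes a short glycopeptide that coats lymphocytes, was the member of the list called higher on its brightest probe. Its brightest probe had 39817, 37777 and 36821 in anti-IgM samples, against 32839, 33026 and 30995 in untreated samples. Every anti-IgM sample was above every untreated sample, by a small margin, with a log2 change of 0.24 ± 0.08 (adjusted p = 0.032, limma). With single samples left out, the call held in 1 of 6 cases (adjusted p = 0.038 without anti-IgM replicate 3, limma). The adjusted p was 0.088 without anti-IgM replicate 1, 0.059 without anti-IgM replicate 2, 0.055 without untreated replicate 1, 0.072 without untreated replicate 2 and 0.11 without untreated replicate 3. Mean log2 intensities of 15.22 in anti-IgM and 14.98 in untreated samples are close to the highest value of an array (between 15.52 and 15.74), where a rise can be understated. A dimmer Cd52 probe had 6562, 8137 and 9644 in anti-IgM samples against 4577, 7066 and 6784 in untreated samples. On that probe the groups overlapped and the change of 0.41 ± 0.18 was not called (adjusted p = 0.10, limma).

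Cd24a, the heat-stable antigen by which immature B cells are told from mature ones, was dim throughout. It had 66.1, 45.7 and 57.2 in anti-IgM samples, against 79.6, 75.3 and 75.0 in untreated samples, each barely above the array median of 72.8. No anti-IgM sample was above that median, so the difference of Cd24a is a bound. With anti-IgM values raised to the median, their mean was 1.05-fold lower (fitted log2 change −0.46 ± 0.14; adjusted p = 0.021, limma). The log2 bound of −0.073 is smaller in size than that SE. Cd24a passed the filter on dim probes through untreated samples alone, so this p-value supports no fall. Without anti-IgM replicate 2 the fitted change was −0.32 and was not called (adjusted p = 0.089).

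Samples of the same replicate number were also compared within pairs. Over the probes tested, the leading principal component held 81.2% of the variance and the next 11.0%. Arrays correlated at 0.981 to 0.992 within groups and at 0.898 to 0.912 across them. Deviations from the group means correlated at 0.57 between the arrays numbered 1. Between an array numbered 1 and one of the other group with another number, they correlated at −0.47 to −0.26. Deviations within a group cancel for each gene, so the positive value between the arrays numbered 1 makes these negative on balance. All 9 genes kept the direction of their mean change in each of the 3 pairs. The groups did not overlap in any of these genes, so every pairing would give this and it adds no support. Fcrla differed by −3.72, −3.47 and −3.36 in pairs 1, 2 and 3, and Cd37 by −1.65, −1.59 and −1.77, the narrowest range among the falls over 2-fold. Ms4a1 varied more, with −1.78, −1.74 and −1.08, and pair 3 was the smallest. Cd53 differed by 0.13, 0.01 and 0.16, so pair 2 was nearly level. With both arrays numbered 1 left out, Fcrla, Cd2, Ly6d, Cd37 and Ms4a1 stayed called lower and Cd52 was not called (0.22; adjusted p = 0.11, limma).

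**Figure D3:**
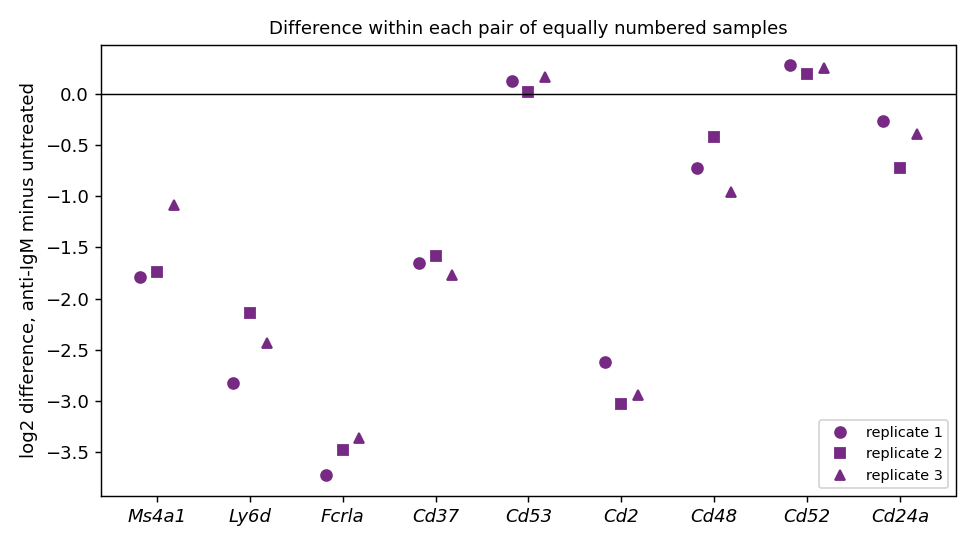
Log2 difference (vertical axis, anti-IgM minus untreated) between samples of the same replicate number for the 9 surface antigen genes, 1 symbol for each of the 3 pairs. All symbols of a gene lie on the same side of 0, with Fcrla lowest and Cd53 nearest to 0.

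Relatives of these genes were called in both directions, and the counts below stand beside the 23.9% lower and 23.2% higher of all genes tested. They include Tspan4, Sh2d1b1 and Pigm among the genes called higher and Nt5e among those called lower, which passed the filter on dim probes only through the group where they were high. Of 15 tetraspanin genes tested besides Cd37 and Cd53, 7 fell and 4 rose, with a median log2 change of −0.12 against 0.02 for all genes. Tspan32 fell most, with a log2 change of −2.65 ± 0.11. Cd63, a tetraspanin of lysosomes and secretory granules, rose most, by 3.06 ± 0.19, or 8.33-fold. Its intensities on the log2 scale were 13.57, 13.50 and 13.14 in anti-IgM samples and 9.88, 10.55 and 10.60 in untreated samples, far apart in every replicate. In the Fc receptor and Fc receptor-like list, 6 of 10 genes besides Fcrla fell and none rose (median −0.99). Fcgrt, the neonatal Fc receptor that recycles antibody, changed by −3.70 ± 0.17, and Fcer2a, the low-affinity IgE receptor CD23, by −2.38 ± 0.36.

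In the MS4A family 2 of 5 genes besides Ms4a1 fell and none rose (median −0.37). Ms4a7 changed by −1.44 ± 0.14 and Ms4a4b by −0.85 ± 0.26 (adjusted p = 0.019, limma). Ms4a4b lost its call without anti-IgM replicate 2 (adjusted p = 0.068) or 3 (0.060). Of 10 CD2 and SLAM family genes and adaptors besides Cd2 and Cd48, 3 fell and 1 rose (median −0.29). Slamf9 changed by −0.92 ± 0.21. Sh2d1b1, which encodes the adaptor EAT-2, stayed below the array median in all untreated samples. With those values raised to the median, its anti-IgM mean was 2.23-fold higher, a direction that the filter favoured. Of 7 LY6 family genes besides Ly6d, 2 fell and 1 rose (median −0.35). Ly6e changed by −2.53 ± 0.10, close to Ly6d in size. The rise of Ly6g5b (0.43 ± 0.15; adjusted p = 0.037, limma) lost its call without anti-IgM replicate 1 (0.13) or 2 (0.084) and without untreated replicate 2 (0.099) or 3 (0.13).

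Cd48, Cd52, Cd24a and Ly6d products need a GPI anchor, so genes of its synthesis were read too. Of 23 such genes 5 were called higher, a share near that of all genes, 2 lower, and 16 were not called (median 0.24). Pigu, a subunit of the transamidase that attaches the anchor, rose by 1.07 ± 0.12, and Pigp, a subunit of the enzyme that begins its synthesis, changed by −1.62 ± 0.18. In place of Cd38, whose product consumes NAD, 9 genes of NAD metabolism were read, 2 higher and 4 lower (median −0.13). Nampt, the rate-limiting enzyme of NAD salvage, rose by 1.09 ± 0.19 and Parp1, a NAD-consuming DNA repair enzyme, changed by −1.98 ± 0.11. Among 16 other surface antigens of B cells, 12 fell and 1 rose (median −0.99), the largest fall being that of the inhibitory lectin gene Cd22 (−2.95 ± 0.20). The BAFF receptor gene Tnfrsf13c rose by 0.30 ± 0.10 (adjusted p = 0.030, limma) and lost its call without anti-IgM replicate 1 (0.065) or 3 (0.10) or untreated replicate 3 (0.12).

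**Figure D4:**
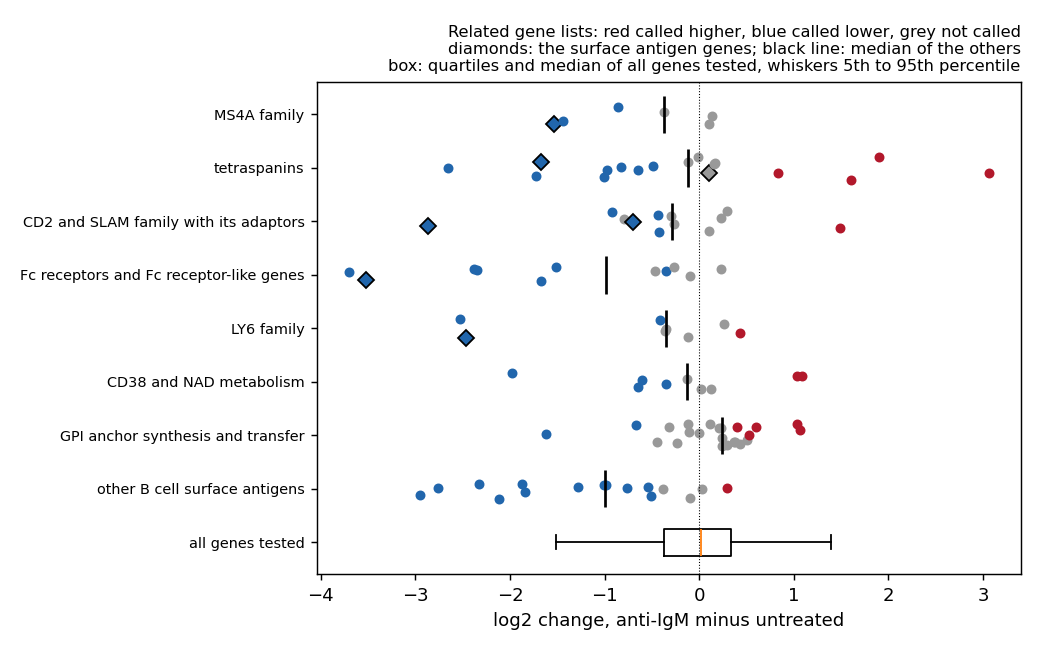
Log2 change (horizontal axis, anti-IgM minus untreated) of the genes tested in 8 related lists, 1 point a gene, with the surface antigen genes as diamonds, calls in colour and the median of the other genes of a list as a line. The box shows the quartiles and median of all 11855 genes, with whiskers at the 5th and 95th percentiles. Diamonds of Fcrla, Cd2, Ly6d, Cd37 and Ms4a1 lie left of the lower whisker, while tetraspanins spread to both sides.

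Markers of the purified cells and of others were read beside these results. All 7 B cell markers tested were above the array median in untreated samples. Of them 5 were called lower and none higher, with a summed intensity of 21480 to 26989 in anti-IgM samples and 51444 to 61903 in untreated samples. Among these 5, Pax5, a B lineage transcription factor gene, was above the median in untreated samples only. The markers Cd22, Cd79b, Fcer2a, Cr2 and Cd72 are also in the related lists above, so the marker counts partly repeat those. Cd72, a B cell coreceptor gene, had a log2 change of 0.03 and was not called. Macrophage and monocyte markers summed to 4968 to 8609 in anti-IgM and 6815 to 19834 in untreated samples (2 of 6 lower), and natural killer cell markers to 2310 to 4559 in anti-IgM and 1924 to 5747 in untreated samples (1 of 5 higher, 1 lower). Dendritic cell markers summed to 2208 to 3350 in anti-IgM and 3974 to 6548 in untreated samples (1 of 4 higher, 2 lower), and neutrophil markers to 953 to 1180 in anti-IgM and 1093 to 2035 in untreated samples (2 of 7 lower). Of the dendritic cell markers called lower, Xcr1 was above the array median in untreated samples only, so its call supports no fall. Erythroid and plasma cell markers overlapped between groups, with 0 of 2 and 1 of 3 called. The part of these cells in the changes of the antigens was not tested.

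The gene with the profile nearest to each antigen was found from log2 intensities centred on the mean of the gene, as the root mean square distance over the 6 arrays. Fcrla was nearest to Slc46a3 (distance 0.18), Cd2 to Rnf144a (0.14), Ly6d to Kynu (0.10), Ms4a1 to Fbxw13 (0.078), Cd48 to Top2b (0.075) and Cd37 to Ppm1m (0.038). Cd24a was nearest to Ankhd1 (0.023), Cd52 to Gm13498 (0.023) and Cd53 to Ly6g5c (0.027). A gene near in profile has by this choice a change close to that of the antigen, so its own change is no result. On the chromosome, 9 of the protein-coding genes next to the 10 antigen genes were tested, of which 3 fell, 2 rose and 4 were not called. Lynx1, a LY6-related gene beside Ly6d, had a mean log2 intensity of 7.64 in anti-IgM and 10.52 in untreated samples, a fall like that of Ly6d (−2.89 ± 0.12; adjusted p = 3.24e-08, limma). Crybg2 and Ubxn11, on either side of Cd52, rose by 1.59 ± 0.16 and 0.86 ± 0.20. The gene next to Cd53 that was tested, Lrif1, fell (−1.19 ± 0.13).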

How the data were processed

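Biotinylated cRNA of 6 samples was made with an Ambion kit and read on Illumina arrays, per the labels' protocols. The authors deposited intensities per probe on a linear scale, already normalized between arrays, as the values show (array medians 72.8 on all 6). The normalization method was not given in the sources used here. Samples were grouped by title. A table of unnormalized signals (6 columns) was not used, because its column names match no sample label.

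Intensities were taken as log2. A probe was tested when above the array median on at least 3 of 6 arrays, which left 23505 of 45281 probes. Each gene was read on its brightest probe. Groups were compared over 11855 genes with limma 3.58.1 in R 4.3.3 (lmFit, eBayes with an intensity trend, group alone, two-sided, Benjamini-Hochberg, threshold 0.05), checked on simulated data. A change is a bound where no sample of a group was above its array median, and dim values were then raised to that median. Beyond the 10 members, the largest called rise and fall of each list, or the 2 largest where all went 1 way, are named, and other genes were named after their values were seen. The members and lists were chosen with earlier results of these data known. No 2 arrays were identical. Deviations from the group means of equally numbered samples correlated at 0.57, 0.24 and 0.29. Each exceeded 0.1, the limit set for taking the labels' numbers to pair the samples. Unequal numbers gave −0.47 to 0.35, and anti-IgM 3 correlated better with untreated 2 (0.35) than with untreated 3, so numbers 2 and 3 are not told apart. Python 3.11.15 with matplotlib 3.10.9 made the figures. The number of arrays limits the precision (median SE 0.15).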

Additional observations from a re-analysis of the deposited data

How the results depend on the processing

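Fcrla, Cd2, Ly6d, Cd37 and Ms4a1 kept their direction and call under every alternative run for them: no filter on dim probes, a filter on all 6 arrays, background subtraction, quantile normalization, median centring, the mean over probes, the dimmest tested probe, no intensity trend, the replicate block, each sample left out in turn, both replicate 1 arrays left out, and their other probes. Over these, Fcrla ranged from −3.67 to −3.25, Cd2 from −3.11 to −2.73, Ly6d from −2.57 to −2.29, Cd37 from −1.73 to −1.63 and Ms4a1 from −1.72 to −1.41. With the replicate block, no call of the 9 genes or of the named list genes changed, 1 gene was called higher and 7 lower (among them Cd48 and Cd24a, which passed the filter only through untreated samples), and 6397 genes were called over all, 5579 of them shared with the 5581 of the fit without it.

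Of 140 values of the 9 genes under these alternatives, 127 kept call and direction, 10 lost the call, 3 gained it and 0 changed sign. Cd52 lost its call on its dimmer probe (0.41), without the trend (0.24), and with both replicate 1 arrays left out (0.22), and with 1 sample left out it ranged from 0.21 to 0.27. Cd53 gained a call on the mean of its probes (0.42) and on its dimmer probe (0.75). Genes of the 10 called higher were thus 2 with the mean over probes, 0 without the trend, 0 with both replicate 1 arrays left out and 0 to 1 with 1 sample left out, and those called lower 5 to 7. Cd24a and Cd48 were then not tested wherever an untreated sample was left out, which accounts for the lower counts there. The fitted change of Cd24a ranged from −0.58 to −0.32 with 1 sample left out. Genes of the related lists called higher numbered 14, or 9 to 17 with 1 sample left out. Within pairs, a comparison added after seeing the data, no sign could change, because the groups did not overlap in any of the 9 genes. The differences furthest from the mean were −1.78 and −1.08 for Ms4a1 (pairs 1 and 3), −2.82 and −2.14 for Ly6d (pairs 1 and 2), −0.27 and −0.72 for Cd24a (pairs 1 and 2) and −0.42 and −0.96 for Cd48 (pairs 2 and 3). Exact permutation over samples gives p = 0.1 for each of the 9 genes, the smallest it can give, which says nothing on stability. A repeat from the unnormalized signals was not run. The causes of these shifts were not tested. Dim probes near the array median, as for Cd24a and Cd48, and bright ones near the array maximum, as for Cd52, limit what a fold can show.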
